A study of Mus musculus with 16 samples.

Results

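The genes described here are 10 genes of acyl-CoA handling, taken by name from an expression matrix of 17883 mouse genes: the long-chain acyl-CoA synthetases Acsl1, Acsl3, Acsl4 and Acsl5, the acetyl-CoA synthetase Acss1, the acyl-CoA thioesterases Acot1, Acot2, Acot11 and Acot13, and the pantothenate kinase Pank1. All 10 were found in the matrix. They were measured in total RNA (input), in RNA pulled down by an antibody to N6-methyladenosine (m6A), and in ribosome-protected fragments (footprints) of adipose tissue. The series asks what METTL3, the methyltransferase that places m6A on mRNA, does in the beiging of white fat.

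A total of 16 libraries fell into 8 groups of 2. All mice were C57BL/6 animals of 8 weeks and carried the METTL3 flox/flox allele, controls included. WT RT mice had no Cre and were untreated, WT cold mice had no Cre and spent 7 days singly housed at 4 °C, and cKO cold mice carried Adipoq-Cre +/- and spent the same time in that cold. Adipoq-Cre is driven by the adiponectin promoter and acts in adipocytes, so the other cells of the tissue keep the allele. Input and m6A libraries came from all 3 conditions and footprints from both cold conditions. There was no room-temperature cKO group, so the effect of cold in cKO mice was not measured. Whether the replicates came from different animals is not in the labels, so the spread behind each p-value is that between these libraries and may be technical. The WT RT libraries carry another library code series than the cold libraries, so a difference by temperature cannot be told apart from one by code series.

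Fatty acids cannot be burned, stored or lengthened until a synthetase joins them to coenzyme A, and each synthetase isoform sits on its own set of membranes. Thioesterases run the other way and release the free acid and coenzyme A. Pantothenate kinases catalyse the first and rate-setting step of coenzyme A synthesis. In fat, this cycle lies between triglyceride storage and the mitochondrial oxidation that feeds heat production.

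Recovered reads ran from 3895031 to 8673393 in input, from 4883129 to 6426541 in m6A and from at least 1676208 to 2461267 in footprint libraries. Mettl3 itself did not separate the genotypes. It stood at 5.24 and 3.66 RPKM in WT cold input (92 and 33 reads) and at 3.83 and 1.90 RPKM in cKO cold input (35 and 15 reads). Footprints held 4.60 and 4.82 RPKM (10 and 8 reads) against 8.99 and 5.22 RPKM (17 and 12 reads). These are low counts from whole tissue, in which only adipocytes carry active Cre, so the deletion was not tested by them. Genotype is therefore given as labelled throughout. The 9 adipocyte markers were present in every group and summed to 6005 to 6031 RPKM in WT RT input, 4303 to 4914 in WT cold input and 3642 to 4152 in input labelled cKO cold. The 8 brown or beige adipocyte markers (Ucp1, Cidea and others) summed to 154 to 218 RPKM, to 1458 to 1780 and to 193 to 214 in the same order. Macrophage markers summed to 583 to 647, 117 to 131 and 518 to 1090 RPKM. Lymphocyte markers summed to 634 to 684 RPKM in WT RT input, but to 0.614 to 1.39 in WT cold input, where Cd79a was at 0, and to 3.39 to 5.47 in input labelled cKO cold. Skeletal muscle markers differed within groups, from 7.44 to 273 RPKM in WT RT input and from 4.16 to 145 in input labelled cKO cold.

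In mouse genome build mm10 the 10 genes lie on 8 chromosomes. Acot2 (chr12:83987861-83993877) and Acot1 (chr12:84009502-84017670) are neighbours 15624 bases apart, and as near-identical paralogs they may share reads, so the split between them is uncertain. RefSeq start sites (build GRCm38.p6) matched 9 of the 10 genes with 12 promoter windows. The windows of Acsl5, Acot2, Acot11 and Pank1 are printed because these 4 genes passed the test in the cold comparison, in the genotype comparison and in footprints, a choice made after their values were seen. Each window holds the 250 bases before a RefSeq start, 5′ to 3′ on the gene's strand, with matches to the motifs named after them in capitals. Which start the tissue used is not known from these data. The Acsl5 window and both Pank1 windows lie inside the RefSeq spans of these genes (chr19:55251861-55296628 and chr19:34806935-34883423). The outermost start of either gene has no window here. Upstream and downstream rank only the printed starts of a gene.
Acsl5 (chr19:55253119-55253368, plus strand): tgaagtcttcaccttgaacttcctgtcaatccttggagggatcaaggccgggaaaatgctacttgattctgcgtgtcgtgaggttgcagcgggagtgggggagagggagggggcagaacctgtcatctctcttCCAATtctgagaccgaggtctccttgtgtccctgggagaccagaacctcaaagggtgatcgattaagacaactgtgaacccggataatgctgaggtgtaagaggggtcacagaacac
Acot2 (chr12:83987611-83987860, plus strand): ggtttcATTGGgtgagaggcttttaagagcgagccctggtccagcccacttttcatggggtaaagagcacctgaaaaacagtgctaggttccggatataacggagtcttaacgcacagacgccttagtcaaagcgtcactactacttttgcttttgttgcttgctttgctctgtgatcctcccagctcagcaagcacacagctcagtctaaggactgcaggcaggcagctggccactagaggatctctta
Acot11 upstream start (chr4:106805008-106805257, minus strand): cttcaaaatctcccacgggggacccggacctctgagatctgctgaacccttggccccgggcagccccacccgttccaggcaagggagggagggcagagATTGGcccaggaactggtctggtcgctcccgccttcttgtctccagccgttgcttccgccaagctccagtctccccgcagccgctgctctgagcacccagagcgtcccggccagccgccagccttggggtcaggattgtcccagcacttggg
Acot11 downstream start (chr4:106799832-106800081, minus strand): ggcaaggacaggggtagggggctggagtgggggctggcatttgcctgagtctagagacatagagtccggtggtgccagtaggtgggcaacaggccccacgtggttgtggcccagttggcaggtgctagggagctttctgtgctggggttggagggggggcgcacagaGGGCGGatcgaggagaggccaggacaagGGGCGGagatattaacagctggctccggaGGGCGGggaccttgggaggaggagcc
Pank1 upstream start (chr19:34879456-34879705, minus strand): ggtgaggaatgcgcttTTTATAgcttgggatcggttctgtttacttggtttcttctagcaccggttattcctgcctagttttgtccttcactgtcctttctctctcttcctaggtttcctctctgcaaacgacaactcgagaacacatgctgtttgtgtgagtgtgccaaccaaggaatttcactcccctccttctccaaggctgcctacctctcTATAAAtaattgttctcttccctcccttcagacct
Pank1 downstream start (chr19:34877918-34878167, minus strand): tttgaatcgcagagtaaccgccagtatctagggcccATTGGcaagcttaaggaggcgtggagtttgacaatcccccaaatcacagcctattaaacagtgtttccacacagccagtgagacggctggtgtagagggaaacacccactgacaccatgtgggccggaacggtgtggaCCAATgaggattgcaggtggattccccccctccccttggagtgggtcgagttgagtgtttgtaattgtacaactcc

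Both strands were searched for 6 motifs in the 12 windows of the 9 matched genes and in all 32851 windows of that length. The CCAAT box (CCAAT) was in 7 of 12 windows and in 33.9% of all windows. The GC box (GGGCGG) was in 6 of 12 and in 32.7% of all. The TATA box (TATAAA) was in 1 of 12 and in 12.4% of all. The window with it was the upstream one printed for Pank1, which lies inside the gene. Both Acot11 windows differ in kind: the upstream one holds a CCAAT box 152 bases before the start, and the downstream one holds 3 GC boxes 83, 55 and 26 bases before it. The strict direct repeat DR1 that PPAR and RXR receptors bind (AGGTCA, any 1 base, AGGTCA), the extended site of estrogen-related receptors (TCAAGGTCA, which shares AGGTCA with DR1) and the cyclic AMP response element (TGACGTCA) were in 0 of the 12 windows. They were in 0.0335%, 0.387% and 1.55% of all windows. The missing letters say only that these strict forms are not within these windows.

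The cold comparison asks how the RNA of WT tissue differed after 7 days at 4 °C. Of the 10 genes, 9 were tested, 6 rose (Acsl1, Acsl5, Acot2, Acot11, Acot13 and Pank1) and none fell. Acot1 was too low to test. Over all 12667 genes tested with limma, 6.52% were called higher and 51.2% lower at an adjusted p under 0.05. The median log2 fold change was 1.32 for the 9 genes and -0.67 for all genes. With each library scaled by its median ratio, the same 6 genes were called higher, while calls over all genes became 2119 higher and 2876 lower, from 826 and 6488.

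Acsl1, the main long-chain synthetase of adipocytes, was the most abundant of the 10 genes per length in every group. Its input stood at 239.5 and 286 RPKM in WT RT, at 800.0 and 1136 in WT cold, and at 733 and 1099 in the libraries labelled cKO cold. The WT RT libraries lay below all 4 cold libraries, and the WT cold values and those labelled cKO overlapped. The log2 fold change of RPKM + 1 was 1.86 ± 0.25 in WT cold against WT RT (SE, n = 2 libraries per group, limma adjusted p = 0.00117). It was -0.09 ± 0.25 for labelled cKO cold against WT cold, with a 95% interval of -0.68 to 0.51 (limma adjusted p = 0.810). Against WT RT, Acsl1 was higher in the libraries labelled cKO cold by 1.77 ± 0.25 (limma adjusted p = 0.00296). Acsl1 made up 87.4% to 97.3% of the summed input RPKM of the 4 Acsl genes.

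Acsl5, a synthetase of mitochondrial and endoplasmic reticulum membranes, read differently from Acsl1 between the cold groups. It stood at 20.3 and 21.5 RPKM in WT RT input, at 62.6 and 45.9 in WT cold and at 19.8 and 19.0 in the libraries labelled cKO cold. WT cold stood apart from both other groups, and the values labelled cKO lay just under those of WT RT. Acsl5 rose by 1.32 ± 0.17 in WT cold (limma adjusted p = 0.00107) and was lower by a log2 fold change of -1.42 ± 0.17 in the libraries labelled cKO cold than in WT cold (limma adjusted p = 0.0052). Labelled cKO cold against WT RT gave -0.10 ± 0.17, with a 95% interval of -0.51 to 0.31.

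Acsl3, the synthetase of lipid droplets and the endoplasmic reticulum, and Acsl4, which prefers arachidonic acid, did not pass the test in any input comparison. Acsl3 stood at 4.84 and 3.83 RPKM in WT RT, at 10.1 and 3.13 in WT cold and at 3.37 and 3.18 in the libraries labelled cKO cold, so the WT cold replicates differed more from each other than from the other groups. Without WT cold input replicate 2, Acsl3 was called higher in the cold (1.06, limma adjusted p = 0.0145) and lower in labelled cKO cold than in WT cold (-1.37, limma adjusted p = 0.0244). The cold call was also made by limma with voom weights on recovered reads (1.32, adjusted p = 0.0294), a fit added after seeing the data. Acsl4 stood at 9.44 and 8.39 RPKM in WT RT, at 7.84 and 5.95 in WT cold and at 8.81 and 8.12 in the libraries labelled cKO cold. Its cold log2 fold change was -0.34 ± 0.20 (limma adjusted p = 0.178).

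Acss1, the mitochondrial enzyme that activates acetate, was called lower in the libraries labelled cKO cold than in WT RT, as none of the other tested genes was. It stood at 11.5 and 11.8 RPKM in WT RT, at 10.1 and 12.8 in WT cold and at 4.53 and 3.12 in the libraries labelled cKO cold. Both values labelled cKO lay below all 4 WT values. The log2 fold change was -0.03 ± 0.22 in WT cold against WT RT, -1.38 ± 0.22 for labelled cKO cold against WT cold (limma adjusted p = 0.00903) and -1.40 ± 0.22 against WT RT (limma adjusted p = 0.00425). Scaled by median ratios, the cold value became 0.58 and was not called, and it was 0.66 with voom on recovered reads scaled the same way (limma adjusted p = 0.0246), so its sign turned with the scaling.

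**Figure D1:**
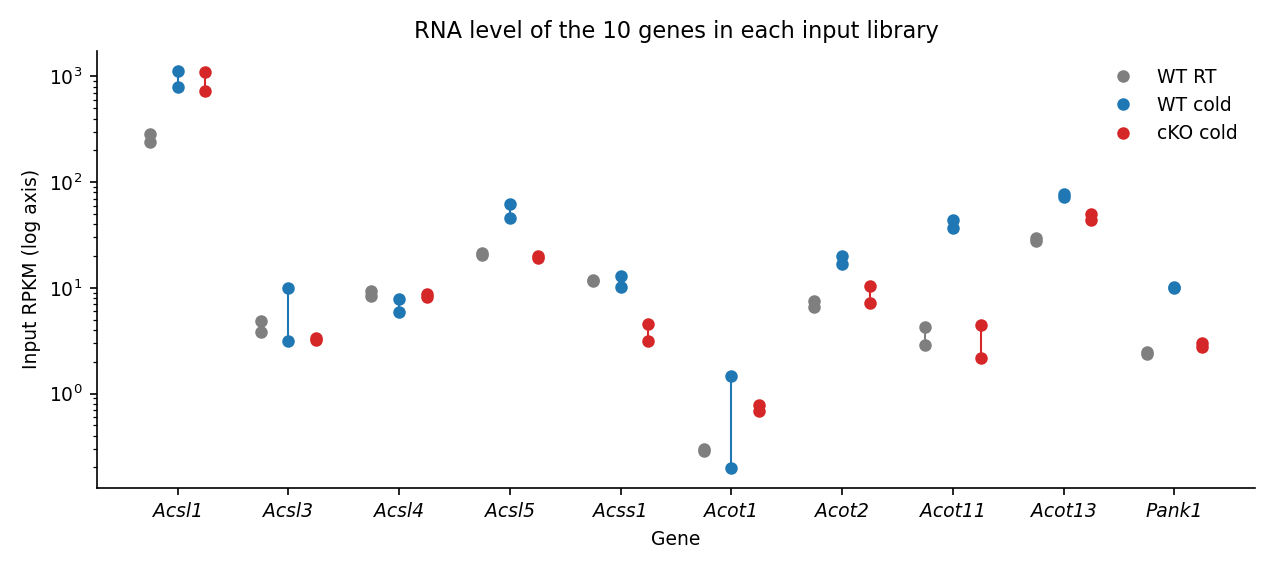
Input RPKM (log axis) of the 10 genes in each of the 6 input libraries, 2 points per group joined by a line. Acsl5, Acot2, Acot11, Acot13 and Pank1 are highest in both WT cold libraries, Acsl1 is as high in the libraries labelled cKO cold as in WT cold, and Acss1 is lowest in the libraries labelled cKO cold.

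Acot11, a thioesterase of long-chain acyl-CoA also known as brown fat inducible thioesterase, had the largest absolute log2 fold change of the 9 tested genes in the cold comparison and in labelled cKO cold against WT cold. Its input stood at 2.85 and 4.27 RPKM in WT RT, at 37.0 and 43.8 in WT cold, and at 4.45 and 2.18 in the libraries labelled cKO cold. Both WT cold values were far above the others, and the other groups overlapped. It rose by 3.19 ± 0.30 in the cold (limma adjusted p = 0.000317), and 0.06% of genes had a higher value. It was lower by a log2 fold change of -3.31 ± 0.30 in the libraries labelled cKO cold than in WT cold (limma adjusted p = 0.00369), and 99.94% of genes had a higher value. Among the 4 Acot genes its share of the summed RPKM was 7.40% and 10.6% for WT RT, 27.9% and 32.0% for WT cold, and 7.43% and 3.66% in the libraries labelled cKO cold.

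Acot13, a small thioesterase bound to mitochondria, was the most abundant of the 4 Acot genes in input. It stood at 27.9 and 29.4 RPKM in WT RT, at 77.4 and 72.9 in WT cold and at 44.3 and 49.5 in the libraries labelled cKO cold, with no overlap between groups. It rose by 1.36 ± 0.13 in the cold (limma adjusted p = 0.0003). In the libraries labelled cKO cold it was lower than in WT cold (-0.67 ± 0.13, limma adjusted p = 0.0131) and higher than in WT RT (0.69 ± 0.13, limma adjusted p = 0.00783). The last call was lost without WT RT input replicate 1 (0.65, limma adjusted p = 0.11) or replicate 2 (0.72, limma adjusted p = 0.0793).

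Acot2, the thioesterase of the mitochondrial matrix, stood at 7.52 and 6.52 RPKM in WT RT input, at 16.7 and 20.04 in WT cold and at 10.4 and 7.25 in the libraries labelled cKO cold. The WT cold values were the highest, and the values labelled cKO reached into the WT RT range. It rose by 1.27 ± 0.22 in the cold (limma adjusted p = 0.00294) and was lower by a log2 fold change of -0.99 ± 0.22 in the libraries labelled cKO cold than in WT cold (limma adjusted p = 0.0198). The second call was not made once WT cold input replicate 2 was left out (-0.87, limma adjusted p = 0.0732), or cKO cold input replicate 2 (-0.76, limma adjusted p = 0.0549). Acot1, its cytosolic paralog, stood at 0.284 and 0.297 RPKM in WT RT (5 reads in each library), at 1.47 and 0.198 in WT cold (29 and 2 reads) and at 0.780 and 0.678 in the libraries labelled cKO cold (8 and 6 reads). WT cold replicate 1 held more of its reads than any other input library.

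Pank1, the pantothenate kinase, held nearly the same level in both libraries of each input group. It stood at 2.39 and 2.496 RPKM in WT RT, at 9.95 and 10.1 in WT cold and at 2.75 and 2.98 in the libraries labelled cKO cold. The WT cold values were clear of all others. It rose by 1.68 ± 0.19 in the cold (limma adjusted p = 0.000588) and was lower by a log2 fold change of -1.52 ± 0.19 in the libraries labelled cKO cold than in WT cold (limma adjusted p = 0.00534). Its paralogs, named here after their values were seen, gave cold log2 fold changes of -0.85 ± 0.17 for Pank2 (limma adjusted p = 0.00525), 0.51 ± 0.28 for Pank3 (limma adjusted p = 0.153) and -1.002 ± 0.18 for Pank4 (limma adjusted p = 0.00381). The median of all genes in this comparison was -0.67. Scaled by median ratios, Pank2 (-0.27) and Pank4 (-0.41) were not called and Pank3 was called higher (1.16, limma adjusted p = 0.016).

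The genotype comparison asks how tissue labelled cKO differed from WT in the cold. Of the 9 genes tested in input, 6 were lower in the libraries labelled cKO cold (Acsl5, Acss1, Acot2, Acot11, Acot13 and Pank1) and none was higher. Over all genes tested with limma, 2.92% were called lower and 23.6% higher. The median log2 fold change was -0.99 for the 9 genes and 0.40 for all genes. With median-ratio scaling, 6 of the genes were again called lower, and calls over all genes became 889 higher and 782 lower, from 2992 and 370. The cold and genotype comparisons share the WT cold libraries and are not independent. Against WT RT, 2 of the 9 genes were higher in the libraries labelled cKO cold and 1 was lower, beside 8.38% and 24.7% of all genes. Brown or beige markers were higher in the cold for 8 of 8 and lower in labelled cKO cold than in WT cold for 8 of 8. Macrophage markers ran the other way, lower for 6 of 9 and higher for 8 of 9. The marker counts in the cold stand beside 51.2% of all genes called lower and 6.52% called higher there. Fibroblast and preadipocyte markers were lower in the cold for 3 of 8 and higher in labelled cKO cold than in WT cold for 8 of 8 (2 of 8 with median-ratio scaling, 4 of 8 with voom). They summed to 1568 to 1592 RPKM in WT RT input, 363 to 542 in WT cold input and 1054 to 2232 in input labelled cKO cold. Fewer cells of a type and less RNA per cell cannot be told apart in whole tissue, and the part of these markers in the results was not tested. Lymphocyte markers were at or near 0 in both cold input groups.

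**Figure D2:**
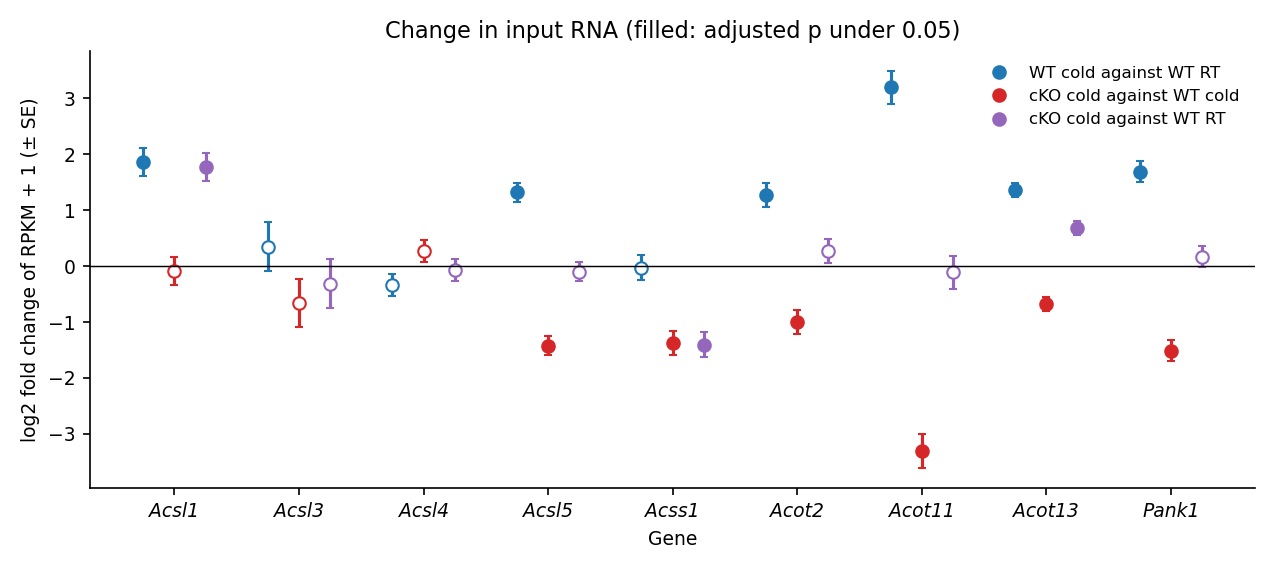
Log2 fold change of RPKM + 1 (± SE) of the 9 tested genes in the 3 input comparisons, filled where the limma adjusted p was under 0.05. In the cold 6 genes are called higher, in labelled cKO cold against WT cold 6 are called lower, and against WT RT Acsl1 and Acot13 are higher and Acss1 lower.

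The other genes of the pathway were read as 5 lists. Over all genes, 6.52% were called higher and 51.2% lower in the cold. In labelled cKO cold against WT cold, 23.6% were called higher and 2.92% lower. Of 19 other acyl-CoA synthetases, 12 were tested, of which 5 rose and 2 fell in the cold, and none was higher and 5 were lower in the libraries labelled cKO cold. Their medians were 0.50 and -0.63, against -0.67 and 0.40 for all genes. With median-ratio scaling 8 rose and 1 fell in the cold (10 and 1 with voom), and 7 were lower in labelled cKO cold (6 with voom). Slc27a2, a very long-chain synthetase and fatty acid transporter, stood at 0.221 and 0 RPKM in WT RT, at 14.7 and 6.39 in WT cold and at 0.228 and 0 in the libraries labelled cKO cold. Its log2 fold changes were 3.28 ± 0.37 (limma adjusted p = 0.0006) and -3.28 ± 0.37 (limma adjusted p = 0.00481). Labelled cKO cold held 3 of its reads against 454 in WT cold, a ratio of 0.0103 per recovered read with an exact 95% interval of 0.00212 to 0.0304, which covers counting error only. Acsm3, a medium-chain synthetase of mitochondria, was lower in the libraries labelled cKO cold than in WT cold (-2.75 ± 0.40, limma adjusted p = 0.00761), with 0.55 ± 0.40 in the cold comparison. With voom the genotype call was lost (limma adjusted p = 0.0518) and Acsm3 was called higher in the cold (1.22, limma adjusted p = 0.0452). Acsbg1, a synthetase best known from the nervous system, fell by 1.73 ± 0.20 in the cold, from 2.78 and 2.16 RPKM to 0.0801 and 0. WT cold held 2 of its reads against 108 in WT RT, a ratio of 0.0214 with an exact 95% interval of 0.00256 to 0.0791.

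Among 6 tested thioesterases outside the 4 described, 1 rose and 1 fell in the cold, beside 6.52% and 51.2% of all genes. Acot4, a peroxisomal thioesterase, rose by 1.55 ± 0.41 (limma adjusted p = 0.0159), from 0.416 and 0.544 RPKM to 1.77 and 5.83. Acot7, best known from brain, fell by 0.55 ± 0.17 in the cold (limma adjusted p = 0.0271) and was higher by 0.88 ± 0.17 in the libraries labelled cKO cold than in WT cold (limma adjusted p = 0.0131). Its fall was smaller than the all-gene median of -0.67. Scaled by median ratios, Acot7 was called in neither comparison (0.05 and 0.48), 4 of the 6 genes rose and none fell in the cold, and 1 of the 6 was lower and none higher in labelled cKO cold. Without WT RT input replicate 1 or replicate 2, 0 of the 6 passed the test.

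All 15 genes of coenzyme A synthesis, transport and breakdown were tested. In the cold 3 rose and 4 fell, beside 6.52% and 51.2% of all genes. With median-ratio scaling 7 rose and 0 fell, so the falls of Dcakd (-0.10) and Ppcdc (-1.24) given next were not called there, and without WT RT input replicate 1, 2 rose and 0 fell. In the libraries labelled cKO cold, 1 was higher and 2 were lower than in WT cold, beside 23.6% and 2.92% of all genes. Dcakd, which carries a dephospho-CoA kinase domain, stood at 13.3 and 9.68 RPKM in WT RT, at 7.47 and 5.92 in WT cold and at 27.6 and 28.4 in the libraries labelled cKO cold. Its log2 fold changes were -0.69 ± 0.20 (limma adjusted p = 0.0234) and 1.92 ± 0.20 (limma adjusted p = 0.00447). Vnn3, of the pantetheinase family, was lower in the libraries labelled cKO cold than in WT cold (-1.75 ± 0.21, limma adjusted p = 0.00511). Ppcdc, a decarboxylase of coenzyme A synthesis, fell by 1.72 ± 0.42 in the cold (limma adjusted p = 0.0119).

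Of 5 tested acyl-CoA binding proteins, 1 rose and 1 fell in the cold, beside 6.52% and 51.2% of all genes. Dbi, the acyl-CoA binding protein of the cytosol, stood at 509.7 and 561 RPKM in WT RT, at 1009 and 960 in WT cold and at 569.6 and 701 in the libraries labelled cKO cold. It rose by 0.88 ± 0.15 in the cold (limma adjusted p = 0.0031) and was lower by a log2 fold change of -0.64 ± 0.15 in the libraries labelled cKO cold than in WT cold (limma adjusted p = 0.0254). Acbd3, a Golgi protein with an acyl-CoA binding domain, fell by 0.53 ± 0.17 in the cold (limma adjusted p = 0.0331), and with median-ratio scaling 0 of the 5 fell. The count of 2 calls became 1 without WT RT input replicate 1, WT RT input replicate 2 or WT cold input replicate 2. The 1 call in the genotype comparison became 0 without WT cold input replicate 2 or cKO cold input replicate 1.

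Of 8 genes for the entry of acyl-CoA into mitochondria and peroxisomes, 5 rose and 3 fell in the cold. The shares of all genes were 6.52% and 51.2%. In the libraries labelled cKO cold, 1 was higher and 3 were lower than in WT cold, beside 23.6% and 2.92% of all genes. Cpt1b, the carnitine palmitoyltransferase typical of muscle and brown fat, stood at 9.68 and 11.7 RPKM in WT RT, at 120.4 and 123 in WT cold and at 14.1 and 7.54 in the libraries labelled cKO cold. It rose by 3.40 ± 0.26 (limma adjusted p = 0.000169) and was lower by a log2 fold change of -3.43 ± 0.26 in labelled cKO cold than in WT cold (limma adjusted p = 0.00337). Slc25a20, the carnitine-acylcarnitine carrier, changed by 2.26 ± 0.19 and -1.42 ± 0.19 in the same comparisons, and the peroxisomal transporter Abcd3 by 1.63 ± 0.17 and -1.04 ± 0.17. With median-ratio scaling, 5 rose and 1 fell in the cold, and 0 were higher and 4 lower in labelled cKO cold. Without WT RT input replicate 1 or replicate 2, 4 of the 8 rose and 1 fell.

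**Figure D3:**
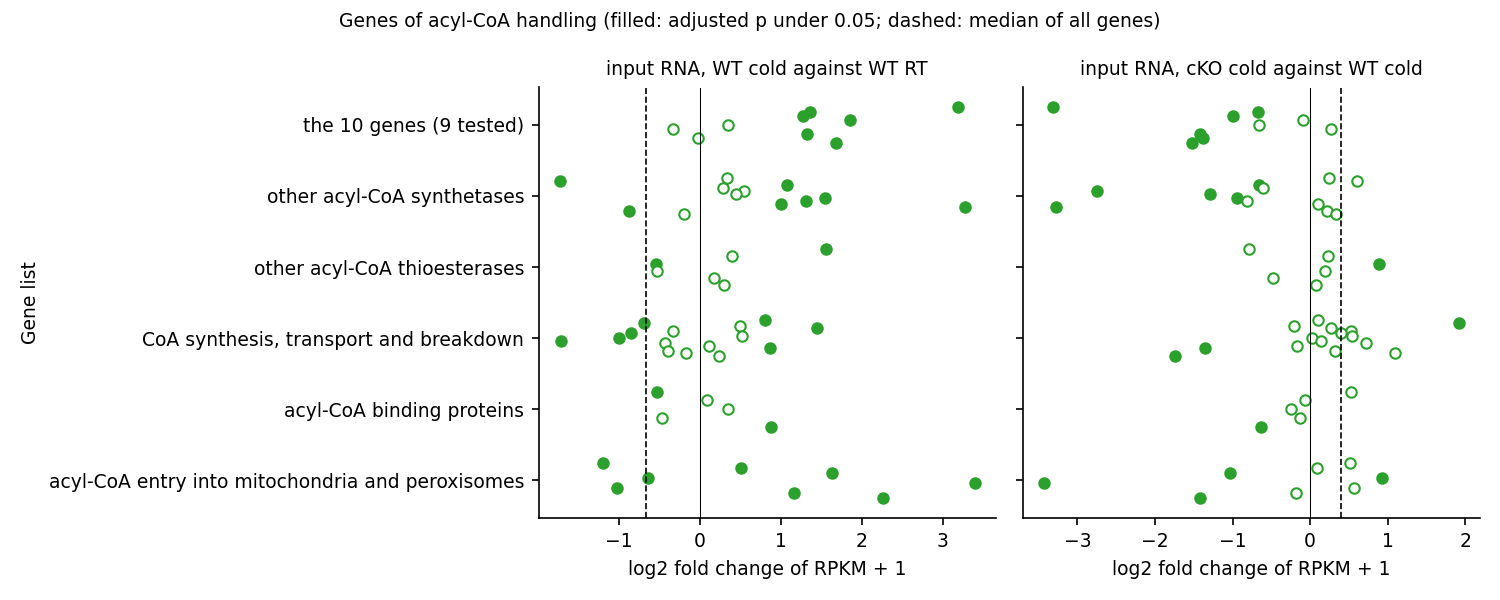
Log2 fold change of RPKM + 1 of every tested gene of the 10 and of the 5 other lists, in WT cold against WT RT (left) and labelled cKO cold against WT cold (right). Filled points had a limma adjusted p under 0.05, and the dashed line is the median of all genes (-0.67 and 0.40).

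Enrichment by the m6A antibody was read as m6A over input, the log2 ratio of RPKM + 1 within a condition. It is a relative measure over the whole transcript, with no value for single sites. In all 3 conditions none of the 9 tested genes was called higher in m6A than in input. Lower calls numbered 4 in WT RT, 4 in WT cold and 7 in labelled cKO cold, beside 34.6%, 25.6% and 35.2% of all 13062 genes called lower and 16%, 13.7% and 11.4% called higher by limma. With median-ratio scaling, lower calls numbered 3, 2 and 4. The values are shares of reads, and the gene Lars2 took 15.2% and 15.4% of reads in WT RT m6A libraries. It took 24.3% to 27.8% in cold m6A libraries, and at most 9.87% in any input library. Its part in the unscaled calls was not tested. Acsl4 and Acsl5 were called lower in all 3 conditions under every setting reported.

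Acsl4 RNA had the lowest ratio of the 9 tested genes in WT RT. Its m6A level was 1.32 and 1.12 RPKM for WT RT, 2.74 and 2.62 for WT cold, and 2.02 and 1.79 in the libraries labelled cKO cold. The ratio to input of the same number was -2.17 and -2.14 for WT RT, -1.24 and -0.94 for WT cold, and -1.70 and -1.71 in labelled cKO cold, so the 3 conditions did not overlap. The fitted values were -2.16 ± 0.17, -1.09 ± 0.17 and -1.71 ± 0.17 (limma adjusted p = 1.16e-05, 0.00076 and 4.19e-05). The difference between WT cold and WT RT was 1.07 ± 0.24 and did not pass the test over all genes (limma adjusted p = 0.172), where 3 and 5 of 13062 genes did in the higher and lower direction (0.023% and 0.0383%). With libraries paired by number within a condition the adjusted p was 0.0557. The values rest on 29 to 89 m6A reads per library.

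Acsl5 RNA was under-represented in m6A by a similar amount in each condition. Its m6A level was 6.01 and 7.87 RPKM for WT RT, 22.3 and 20.02 for WT cold, and 7.26 and 5.33 in the libraries labelled cKO cold, highest in WT cold like its input. The fitted log2 ratios were -1.47 ± 0.19, -1.30 ± 0.19 and -1.50 ± 0.19. Their differences were 0.17 ± 0.27 for cold and -0.19 ± 0.27 for genotype, with 95% intervals of -0.43 to 0.77 and -0.79 to 0.41.

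The m6A level of Acsl1 differed between the cold groups without overlap. It was 199 and 232 RPKM for WT RT, 723 and 1097 for WT cold, and 355 and 480 in the libraries labelled cKO cold, although input RNA of both cold groups overlapped. The ratio was -0.27 and -0.30 for WT RT, -0.145 and -0.05 for WT cold, and -1.04 and -1.19 in labelled cKO cold. The ratios labelled cKO lay below those of the other conditions without overlap. The difference between genotypes was -1.02 ± 0.38, with a 95% interval of -1.87 to -0.17, and it did not pass the test over all genes (limma adjusted p = 0.384). None of the 13062 genes did (0% in each direction), while 1311 had an unadjusted p under 0.05. With libraries paired by number within a condition, the standard error was 0.0973 and the adjusted p 0.00844, beside 3.04% of all genes called lower and 0.0612% called higher. Adipocyte markers moved the same way, with a median difference of -0.61 against -0.14 for all genes. The markers were below 0 in 9 of 9, as were most of all genes, and their part in the Acsl1 value was not tested.

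Acot2 had the next largest drop. Its m6A level was 5.81 and 5.22 RPKM for WT RT, 9.89 and 16.5 for WT cold, and 3.06 and 2.49 in the libraries labelled cKO cold. The ratio was -0.32 and -0.27, then -0.70 and -0.265, then -1.49 and -1.24, lowest in labelled cKO cold. The genotype difference was -0.88 ± 0.34 (limma adjusted p = 0.399). All 9 tested genes had a genotype difference below 0, with a median of -0.24 against -0.14 for all genes. Most of all genes were below 0 too: Acsl3, at -0.05, had only 38.06% of genes above it. With median-ratio scaling the median of all genes was 0.065, so the sign depends on the scaling. Acot11, with m6A levels of 3.15 and 6.06, 35.0 and 40.5, and 3.43 and 1.48 RPKM in the 3 conditions, differed by -0.24 ± 0.50. Pank1 differed by -0.23 ± 0.24. In both genes the m6A level, like the input, was highest in WT cold.

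Several of the weaker m6A calls turned on scaling or on 1 library. In labelled cKO cold, Acsl1 was called lower in m6A than in input (-1.12 ± 0.27, limma adjusted p = 0.00682). The call was lost with median-ratio scaling (-0.69, limma adjusted p = 0.0887), with voom (-0.68, limma adjusted p = 0.0747), without cKO cold input replicate 2 (-0.83, limma adjusted p = 0.0569) and without cKO cold m6A replicate 1 (-0.90, limma adjusted p = 0.0556). Pank1 in labelled cKO cold (-0.56 ± 0.17) lost its call with median-ratio scaling and voom, and without cKO cold input replicate 2 (limma adjusted p = 0.0749) or cKO cold m6A replicate 2 (limma adjusted p = 0.1075). Acss1 in labelled cKO cold (-0.95 ± 0.23) lost its call with median-ratio scaling and voom, with only the groups compared (limma adjusted p = 0.054), and without cKO cold input replicate 1 (limma adjusted p = 0.0501) or cKO cold m6A replicate 2 (limma adjusted p = 0.0588). In WT cold, Acss1 (-0.72 ± 0.23) and Acot13 (-0.50 ± 0.13) lost their calls with median-ratio scaling and voom. Acss1 also lost it without WT cold input replicate 2, WT cold m6A replicate 1 or WT cold m6A replicate 2 (limma adjusted p = 0.152, 0.0821 and 0.115). Acot13 also lost it without WT cold input replicate 1, WT cold m6A replicate 1 or WT cold m6A replicate 2 (limma adjusted p = 0.0625, 0.0581 and 0.0502). In WT RT, Acot13 (-0.55 ± 0.13) lost its call with median-ratio scaling, voom, or without WT RT m6A replicate 1 (limma adjusted p = 0.0637). In labelled cKO cold, Acot13 (-0.82 ± 0.13) lost its call with voom (limma adjusted p = 0.109). Acsl3 was uncalled in each condition and was called in WT cold once WT cold input replicate 2 was left out (-1.55, limma adjusted p = 0.00598). Acot2 was called in WT cold without WT cold m6A replicate 2 (-0.82, limma adjusted p = 0.029).

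**Figure D4:**
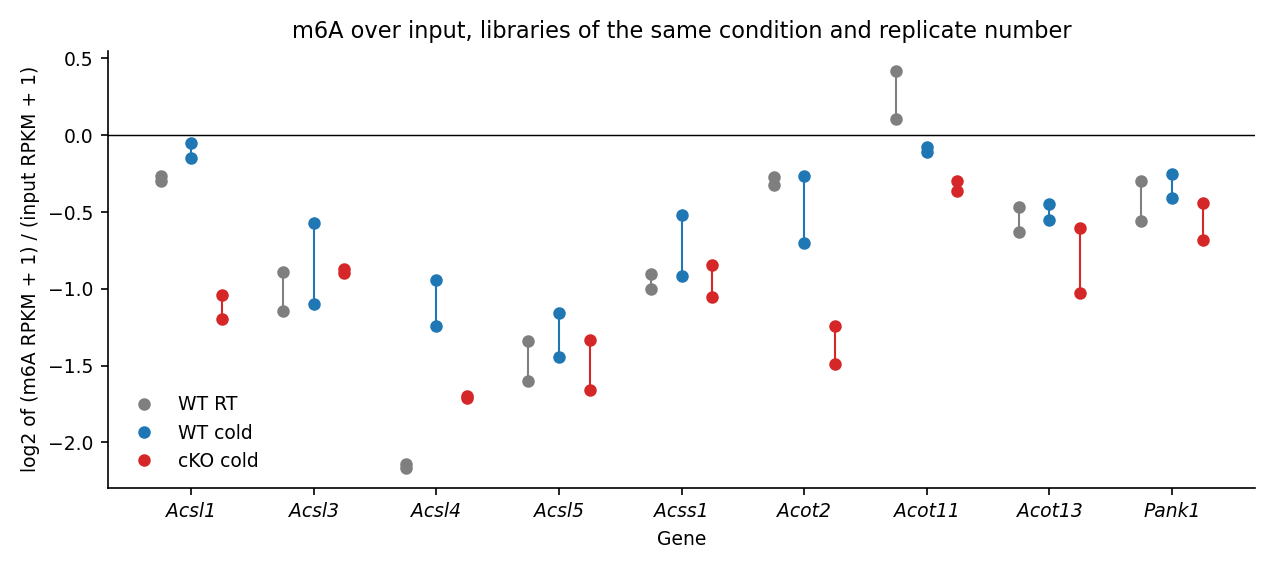
Log2 ratio of m6A to input RPKM + 1 for 9 genes, between libraries of the same condition and replicate number, 2 points per condition joined by a line. Acsl1 and Acot2 are lowest in labelled cKO cold without overlap with the other conditions, Acsl4 is lowest in WT RT, and Acsl5 lies between -1.16 and -1.66 throughout.

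Footprints ask how much ribosome-bound RNA each gene had in the cold. All 10 genes were tested, of which 5 were lower in the libraries labelled cKO cold than in WT cold (Acsl5, Acss1, Acot2, Acot11 and Pank1) and none was higher. Over 12763 genes tested with limma, 1.54% were called lower and 5.61% higher. The median log2 fold change was -1.14 for the 10 genes and 0.42 for all genes. Brown or beige markers were lower in 6 of 8, with sums of 6826 to 9120 RPKM in WT cold and 596 to 844 in labelled cKO cold footprints, and macrophage markers were higher in 5 of 9 (1 with median-ratio scaling, 0 with voom). The part of these markers in the footprint results was not tested. Lymphocyte markers, near 0 in cold input, summed to 311 to 449 and 312 to 972 RPKM in the same groups' footprints, so footprint and input libraries differ in makeup. Footprint and input RPKM also rest on different gene lengths, so a ratio of footprints to input is compared only between genotypes for the same gene, and its size is not read.

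Acsl5 had the second highest footprint level of the 10 genes in WT cold, at 512 and 419.8 RPKM, against 52.5 and 22.5 in the libraries labelled cKO cold. The log2 fold change was -3.71 ± 0.36 (limma adjusted p = 0.0051), and 99.94% of genes had a higher value. Acsl1 stood at 1567 and 1538 RPKM in WT cold and at 1222 and 2026 in labelled cKO cold, with a log2 fold change of 0.02 ± 0.36 and a 95% interval of -0.79 to 0.83. Acsl1's share of the footprints of the 4 Acsl genes was 73.1% and 75.9% in WT cold and 90.9% and 96.1% in labelled cKO cold.

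Acot11 stood at 228 and 152 footprint RPKM in WT cold and at 12.5 and 5.75 in the libraries labelled cKO cold, lower by -4.30 ± 0.39 on the log2 scale (limma adjusted p = 0.00333). Pank1 stood at 73.2 and 76.5 RPKM against 10.4 and 11.5, lower by -2.67 ± 0.23 (limma adjusted p = 0.00222). Acss1 stood at 47.7 and 29.5 RPKM against 13.0 and 10.4 (-1.61 ± 0.31, limma adjusted p = 0.0275). None of these 3 genes had overlapping groups, but neither did Acsl3 and Acot13, which were not called. The share of all genes without overlap was not counted.

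Acot2 stood at 15.3 and 38.2 footprint RPKM in WT cold and at 8.46 and 3.90 in the libraries labelled cKO cold, again without overlap (-1.89 ± 0.45, limma adjusted p = 0.0437). Its libraries held 99 reads or fewer on the recovered scale. The Acss1 call was lost with no filter (limma adjusted p = 0.0526), with only the groups compared (0.0772), and without any 1 of the 4 footprint libraries: WT cold replicate 1 (limma adjusted p = 0.0604), WT cold replicate 2 (0.0555), cKO cold replicate 1 (0.0783) or cKO cold replicate 2 (0.0606). The Acot2 call was lost without WT cold replicate 2 (limma adjusted p = 0.184), cKO cold replicate 1 (0.0767) or cKO cold replicate 2 (0.104), with a pseudocount of 0.1 (0.0589), with no filter (0.0911), with only the groups compared (0.105) and with voom (0.0696). Calls for Acsl5, Acot11 and Pank1 held under every setting reported.

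The other footprint levels did not pass the test. Acot13 stood at 240.0 and 334 RPKM in WT cold and at 220.1 and 203 in the libraries labelled cKO cold (-0.42 ± 0.23, limma adjusted p = 0.243). Acsl3 stood at 21.9 and 17.0 RPKM against 13.6 and 9.99, and Acsl4 at 41.8 and 51.9 against 55.6 and 50.6. Reads on Acot1 numbered 2 and 0 for WT cold, against 2 and 5 for labelled cKO cold, too few to show a difference at this depth.

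**Figure D5:**
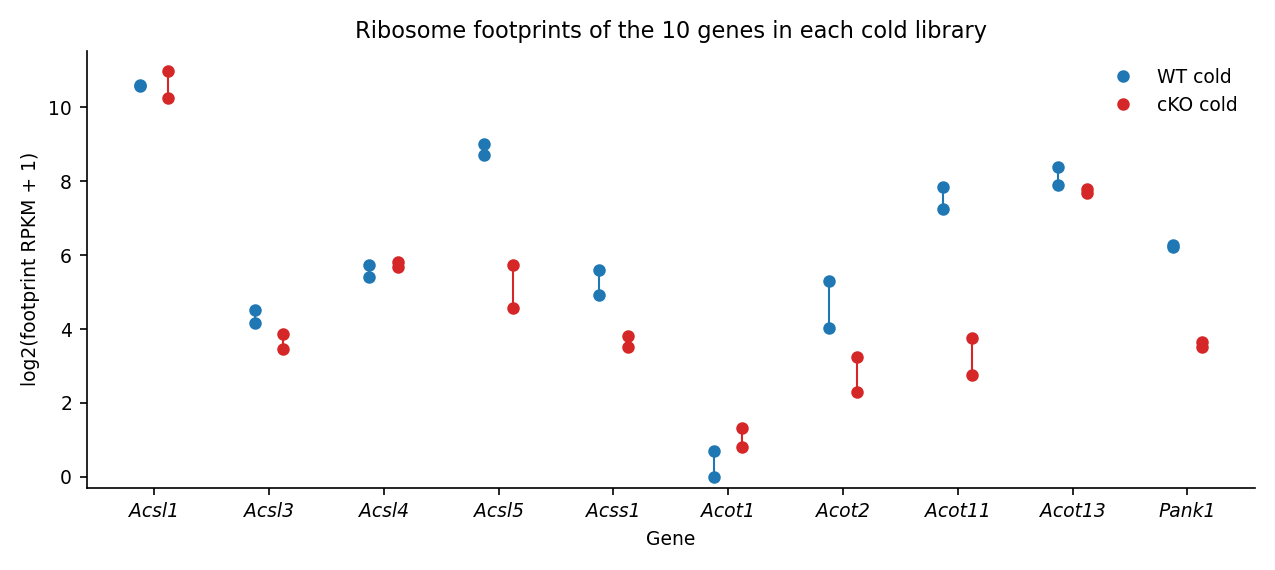
Footprint level of the 10 genes as log2(RPKM + 1) in the 4 cold footprint libraries, 2 points per group joined by a line. Acsl5, Acot11 and Pank1 show the widest gaps between WT cold and labelled cKO cold, and Acsl1 and Acsl4 overlap.

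Translational efficiency, footprints over input, was compared between the genotypes as an interaction. None of the 10 genes passed the test with limma, and neither did any of the 12763 genes tested (0% in each direction), of which 459 had an unadjusted p under 0.05. With voom on recovered reads, 0 of the 10 and 0 of all genes passed. Acsl5 had a ratio of 3.01 and 3.17 in WT cold and of 1.36 and 0.235 in labelled cKO cold, without overlap, and a difference of -2.29 ± 0.51 (limma adjusted p = 0.9996), with 99.91% of genes higher. Pank1 had ratios of 2.76 and 2.80 against 1.60 and 1.65, and a difference of -1.15 ± 0.32 (limma adjusted p = 0.9996). Acsl1 differed by 0.11 ± 0.50 and Acsl4 by -0.09 ± 0.34. Over the 10 genes the median difference was -0.16, and over all genes it was -3e-04. Brown or beige markers had a median of -0.69 with 0 of 8 above 0, and macrophage markers one of -0.90 with 1 of 9 above 0. The medians of the other marker lists ran from -0.43 (endothelial) to 0.185 (lymphocyte, 8 of 9 above 0). The part of these markers in the ratios was not tested.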

How the data were processed

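Values were the authors' deposited RPKM, 1 matrix of 17883 genes and 16 libraries. The submitters' processing notes name HISAT2 and mm10; the counting tool and annotation are not given in the sources used here. Per the labels' protocols, RNA was taken with Trizol from flash-frozen tissue, m6A RNA was captured with antibody, ribosome-bound fragments were collected by ultracentrifugation, and libraries were made with a small RNA kit. The authors' processing before deposit fixed the scaling: in input and m6A libraries each value is a share of the reads on the listed genes.

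The test was limma's (version 3.58.1, R 4.3.3, trended eBayes, two-sided) on log2(RPKM + 1), restricted to genes that reached 1 RPKM in 2 or more libraries of a fit. The p-values were adjusted by Benjamini-Hochberg over all genes tested, and the threshold was 0.05. One fit held the 6 input libraries (3 residual degrees of freedom), as others held the 12 input and m6A libraries (6) and the 8 cold input and footprint libraries (4). Changes of m6A over input and of footprints over input were interaction terms. The added 1 RPKM understates the change of low genes. Whole reads were recovered from the deposited RPKM steps for 100.0% of 17883 genes (tolerance 0.001 read plus 3e-08 of the reads), footprint reads only up to a common factor, so footprint totals are lower bounds. A limma fit with voom weights on these reads, scaled by median ratios, was added after seeing the data. Its calls over all genes in input were 2679 higher and 2904 lower in the cold, and 758 higher and 891 lower in labelled cKO cold against WT cold. Scripts were tested on simulated data. Figures were drawn with matplotlib 3.10.9.

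The genes and lists were chosen with earlier results of these data known. From each other list, up to 3 genes called in the cold or genotype comparison of input with the largest absolute log2 fold change were named. Promoter sequences are RefSeq's (GRCm38.p6). All 16 value columns were used. Replicate numbers were checked for pairing by the correlation of deviations from group means over 8464 genes: 0.305 to 0.656 between libraries of the same condition and number, and -0.099 to 0.078 across conditions. Within a condition, libraries of the same number were therefore treated as pairs in the ratios by library and in the replicate block alternative. This pairing rests on the data, as the labels say nothing of pairs. The main tests were fitted to group means without pairs, so their standard errors and p-values are unpaired. Numbers were not taken to pair libraries across conditions.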

Additional observations from a re-analysis of the deposited data

Results flagged for a closer look

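For Acsl1, the change of m6A over input between the libraries labelled cKO cold and WT cold passed a test of the difference itself once libraries were paired by number within a condition (-1.02 ± 0.0973, limma adjusted p = 0.00844). Unpaired, its standard error was 0.38 and the adjusted p 0.384. The pairs were read from the data, as the labels name none. Over the alternatives tried the value ran from -1.32 to -0.72, with adjusted p from 0.00844 to 0.79.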

How the results depend on the processing

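Alternatives were a pseudocount of 0.1, no filter, median-ratio scaling, only the groups compared, the replicate block, leaving out each library, and, added after seeing the data, voom on recovered reads. A quasi-likelihood count test on recovered reads was chosen beforehand and run first and is not reported, because the deposited values are RPKM and not counts; voom took its place after its results had been seen. Of the counts of genes called, lower calls in m6A over input went from 4 to 2 in WT cold and from 7 to 4 in labelled cKO cold with median-ratio scaling, and to 2 and 3 with voom. Lower calls in footprints went from 5 to 3 with no filter and with only the groups compared. The replicate block gave 1 call for the genotype change of m6A over input, against 0 without it. The cause was not tested in any of these cases, beyond that only the groups compared leaves fewer libraries to estimate the spread.

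Leaving out 1 library gave 6 to 7 calls in the cold, 5 to 6 for genotype in input and 2 to 3 for labelled cKO cold against WT RT. In m6A over input it gave 3 to 4 calls in WT RT, 2 to 4 in WT cold (2 without WT cold m6A replicate 1) and 5 to 6 in labelled cKO cold. In footprints it gave 3 to 4 calls (3 without WT cold replicate 2, cKO cold replicate 1 or cKO cold replicate 2), and for changes of m6A or footprints over input 0. Where 1 library of a group was left, its spread was taken to be that of the other groups.

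The cold value of Acss1 turned from -0.03 to 0.66 with voom (limma adjusted p = 0.0246). Its sign turned with median-ratio scaling alone as well, the scaling that voom used, and what lies behind the effect of scaling was not tested. Of 1016 alternative values of the genes, 70 differed in sign while uncalled in both. Input calls of Acsl5, Acot11, Acot13 and Pank1, in the cold and for genotype, were made in every alternative. Scaling moved the median of all genes from -0.67 to -0.13 in the cold, from 0.40 to 0.06 for genotype in input and from 0.42 to 0.06 in footprints, where calls over all genes went from 716 higher and 196 lower to 101 and 302.

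Pairing by number across conditions, used as a replicate block for input, changed no call of the 10 genes. Within conditions the block added lower calls in m6A over input for Acsl1 (-0.28, limma adjusted p = 0.00695) and Acsl3 in WT RT, Acsl3 and Acot2 in WT cold, and Acsl3 in labelled cKO cold. With the Acsl1 genotype change above, these were its only changes of call. The change of footprints over input uses all 8 libraries, so only the groups compared does not apply to it. Depth limits Acot1, with 2 to 29 input reads per library, and footprint reads of Acot2.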

Other observations

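Genes with the input pattern most like that of 3 of the 10 genes were ranked by Pearson's r of log2(RPKM + 1) over the same 6 input libraries among 12666 genes, as a description with no test. The 6 points fall into 3 groups that share libraries and scaling, so high values are common. Nearest to Acot11 were mt-Nd6 (0.998), Cpt1b (0.998), Echdc1 (0.998), Cat (0.994) and Uqcrc1 (0.990). Nearest to Pank1 were Dlst (0.998), mt-Co1 (0.997), Acadvl (0.997), Hadhb (0.997) and mt-Nd5 (0.997). Of these, mt-Nd6, Uqcrc1, mt-Co1 and mt-Nd5 encode subunits of the respiratory chain, and Acadvl and Hadhb enzymes of fatty acid oxidation. Among the nearest to Acsl1 were Vps35 (0.999), Map6 (0.995), Glul (0.993) and Fuom (0.991), none of them on the lists for Acot11 or Pank1.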
